A study of Mus musculus with 27 samples.

Results

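Photoreceptors signal to ON bipolar cells of the retina through a protein complex built around the glutamate receptor mGluR6. The RNAs of 8 genes of this complex were followed in whole mouse retina between embryonic day 14 (E14) and postnatal day 60 (P60). They encode the receptor (Grm6), the cation channel it controls (Trpm1), 3 membrane proteins of the scaffold (Nyx, Gpr179 and Lrit3), a pair of regulators that switch the G protein off (Rgs7 and Rgs11) and the G protein α subunit (Gnao1). Members were chosen by symbol from a table of 38168 features, each symbol was listed 1 time, and all 8 passed the filter on low values that 31760 features passed. The retinas came from untreated, wild-type C57BL/6J mice, an inbred laboratory strain, with 6 libraries at P60, 4 per age at P28, P15 and P1, and 3 per age at P6, E17 and E14. According to the study's methods, libraries were pools of several animals except that some P60 libraries came from single mice, and embryos and P1 pups were of both sexes whereas later mice were males. The labels instead give 3 retinas per library at every age, fewer than the pools of the methods, so how many animals a library stands for is uncertain, and they do not say which P60 libraries were pools. Values are CPM, the reads of a gene scaled to a library total that is the same for all samples.

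In darkness photoreceptors release glutamate, which binds mGluR6 on the dendritic tips of rod and ON cone bipolar cells and, through the G protein Go, keeps the TRPM1 channel closed. When light lowers glutamate release, the GTPase-accelerating proteins RGS7 and RGS11 help to end the Go signal, TRPM1 opens and the cell depolarizes, which is seen as the b-wave of the electroretinogram. Nyctalopin (Nyx) and LRIT3 are leucine-rich repeat proteins needed to place TRPM1 at the synapse, and the orphan receptor GPR179 holds the RGS proteins there. Loss of Grm6, Trpm1, Nyx, Gpr179 or Lrit3 function is a known cause of congenital stationary night blindness. Lrit3 is also known from photoreceptors, and Rgs7 and Gnao1 are used by many neurons.

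The genes lie on different chromosomes of the mouse genome GRCm38, apart from Grm6 and Gpr179. Grm6 (Gene ID 108072) is annotated at chr11:50850685-50866208 on the plus strand and Gpr179 (217143) at chr11:97332109-97352077 on the minus strand. Trpm1 (17364) lies at chr7:64153835-64269775 on the plus strand, Nyx (236690) at chrX:13466110-13489313 on the plus strand, and Lrit3 (242235) at chr3:129787881-129804030 on the minus strand. Rgs7 (24012) spans chr1:175059087-175492500 on the minus strand, Rgs11 (50782) chr17:26202951-26211324 on the plus strand, and Gnao1 (14681) chr8:93809966-93969388 on the plus strand. Exons of Grm6 share 599 bases, or 11.0% of their summed length, with the antisense gene Gm12660, and smaller stretches of Rgs11 (138 bases, Arhgdig), Gnao1 (284 bases, 4930488L21Rik) and Trpm1 (12 bases, Gm44722) are shared with genes on the opposite strand. Whether reads were counted by strand is not given in the sources used here, so reads of such stretches cannot be assigned. Arhgdig had at most 3.71 CPM in any library and 4930488L21Rik at most 12.2.

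The promoters of Grm6, Trpm1 and Gpr179 are shown because these members had at most 9.84 CPM in every P1 library and at least 115 CPM in every P6 library. Each sequence holds the 250 bases before the RefSeq start in GRCm38.p6, read 5′ to 3′ on the gene's own strand, at chr11:50850435-50850684 (plus) for Grm6, chr7:64153585-64153834 (plus) for the upstream start of Trpm1 and chr11:97352357-97352606 (minus) for Gpr179. Capitals mark matches to TAATCC, the core bound by OTX2 and CRX homeodomain factors (GGATTA on the other strand), and to CAGATG, an E-box of neural bHLH factors (CATCTG on the other strand).
Grm6: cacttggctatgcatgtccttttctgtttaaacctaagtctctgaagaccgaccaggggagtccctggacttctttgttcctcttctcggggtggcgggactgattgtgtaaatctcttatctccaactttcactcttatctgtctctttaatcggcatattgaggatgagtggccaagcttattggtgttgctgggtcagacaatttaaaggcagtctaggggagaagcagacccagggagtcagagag
Trpm1: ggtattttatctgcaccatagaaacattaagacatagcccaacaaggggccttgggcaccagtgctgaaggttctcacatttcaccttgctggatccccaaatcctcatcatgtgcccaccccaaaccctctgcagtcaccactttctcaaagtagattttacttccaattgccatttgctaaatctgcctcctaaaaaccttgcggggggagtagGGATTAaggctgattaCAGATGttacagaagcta
Gpr179: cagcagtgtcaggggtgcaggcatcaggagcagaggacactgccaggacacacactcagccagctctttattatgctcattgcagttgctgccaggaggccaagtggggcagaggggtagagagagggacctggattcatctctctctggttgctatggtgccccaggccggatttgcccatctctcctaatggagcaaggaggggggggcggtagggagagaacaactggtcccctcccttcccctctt
Of the 8 promoters found for 7 members (Trpm1 has a pair of starts and Rgs11 had no entry), only the upstream promoter of Trpm1 held either motif. Its GGATTA began 34 bases and its CAGATG 18 bases before the start, and they do not overlap. Of 32851 RefSeq promoter windows of this length, 6.25% held TAATCC or its reverse and 14.4% held CAGATG or its reverse, so such matches are common and describe only the letters of the window.

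Libraries held 7076646 to 11330762 counted reads, so that 1 read was worth 0.0882 to 0.141 CPM. A count of 0 allows up to 3 reads, or 0.265 to 0.424 CPM, and this limit and the intervals given for ratios cover counting error only. The mean correlation of a library with the others of its age was at least 0.979 across features at every age but P60, where it was 0.958 to 0.973. Among the P60 libraries, replicates 3, 4 and 5 had the lowest mean correlation with P28 (0.946 to 0.966). Part of the results that involve P60 are therefore also given without them. The orders of age means and the separation of mature from embryonic libraries are given with all P60 libraries only.

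Levels in mature retina (P15, P28 and P60) were compared with those in embryonic retina (E14 and E17) to ask which members gained RNA over the whole period. Of the 8 members, 7 were higher in mature retina by limma at an adjusted p under 0.05 and a log2 fold change of at least 1, against 14.9% of all features tested. On the log2(CPM + 1) scale, the fold change was 7.36 ± 0.11 (SE, adjusted p = 1.14e-31) for the channel Trpm1, 7.06 ± 0.12 (adjusted p = 4.80e-31) for the receptor Grm6 and 5.69 ± 0.11 (adjusted p = 3.35e-29) for Gpr179. The order of the first pair depends on the scale, since Grm6 was at 0 to 6 reads in the embryonic libraries. With a pseudocount of 0.1 Grm6 gave 9.36 and Trpm1 7.75, and edgeR on the reads gave 10.02 and 7.89. Nyx (3.78 ± 0.13), Rgs11 (3.27 ± 0.17), Lrit3 (2.54 ± 0.08) and Rgs7 (2.35 ± 0.09) followed, and Gnao1, with 0.77 ± 0.04 (adjusted p = 2.25e-16), passed the adjusted p but not the fold. The count was also 7 without P60 replicates 3, 4 and 5. In all 8 members every mature library was above every embryonic one, which was so for 17.4% of features tested. The median over the members was 3.52, beside -0.06 over all features. In whole tissue, more cells that express a gene and more RNA per cell cannot be told apart.

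**Figure D1:**
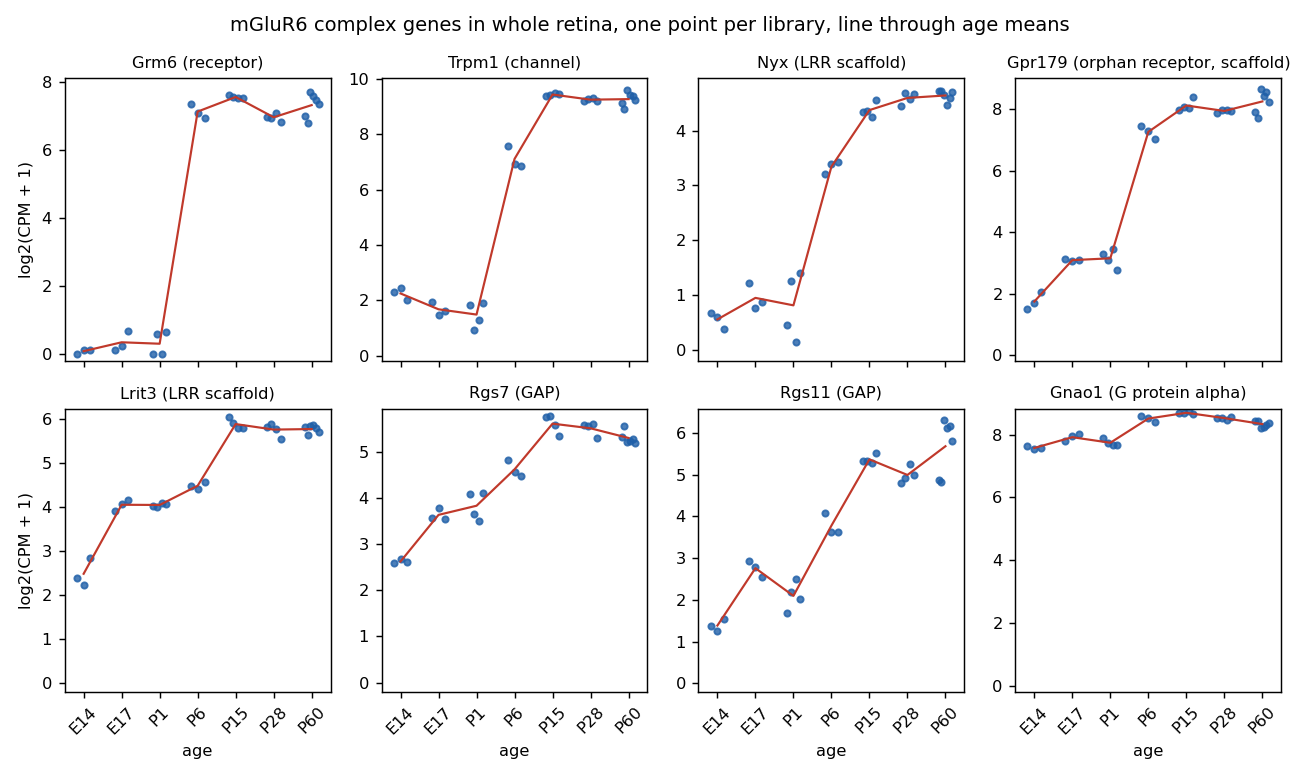
Level of each member as log2(CPM + 1) (vertical axis, scaled per panel) against age (horizontal axis, ages evenly spaced). Points are the 27 single libraries and the red line joins the age means; Grm6 goes from a mean of 0.274 CPM at P1 to 140.3 at P6, whereas Gnao1 goes from 214 to 366.

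Grm6 encodes the receptor. It was at or near the limit of detection up to birth, with 0, 1 and 1 reads in the E14 libraries, 1, 2 and 6 at E17, and 0, 4, 0 and 5 at P1. At P6 the 3 libraries had 163, 135 and 122 CPM. No library lay between the highest P1 value, 0.591 CPM, and the lowest P6 value. Over all libraries of an age, 3294 reads at P6 stood against 9 at P1, a ratio of depth-scaled counts of 518 (95% exact interval 273 to 1134). The step from P1 to P6 was 6.82 ± 0.18 on the log2(CPM + 1) scale (limma, adjusted p = 5.85e-24), and the E14, E17 and P1 levels did not differ beyond their spread (adjusted p = 0.52 for E17 against E14 and 0.95 for P1 against E17).

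After P6 no step of the receptor passed both thresholds. The P15 libraries had 196, 187, 186 and 183 CPM, all above the P6 range, but the difference of 0.43 ± 0.18 did not pass (adjusted p = 0.068; 0.047 without P6 replicate 1, and 0.040 or 0.046 without replicate 2 or 3 of P60). The P28 libraries had 125, 123, 136 and 113 CPM, and none reached the P15 range. Grm6 was lower at P28 than at P15 by -0.60 ± 0.17 (adjusted p = 0.047), under the minimum fold, and this p was above the threshold without any 1 library of E14, P6, P15 or P28, without E17 replicate 2 and without P60 replicate 6 (0.051 to 0.15). The adjusted p by limma was also above it with a pseudocount of 0.1 (0.65), median-of-ratios scaling (0.079) and no filter (0.053). It stayed under the threshold with a minimum mean of 10 CPM and by edgeR on all libraries. In the order of the age means, P28 (124 ± 9.54 CPM, SD), P6 (140.3 ± 20.7), P60 (163 ± 38.2) and P15 (188 ± 5.37), no neighbors differed.

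Trpm1 encodes the cation channel that mGluR6 closes. It was detected before birth, with 3.90, 4.43 and 3.05 CPM at E14, 2.86, 1.76 and 2.07 at E17, and 2.58, 0.882, 1.47 and 2.72 at P1. The E17 values lay below those of E14, by -0.57 ± 0.19 (adjusted p = 0.0504; 0.021 to 0.044 without E14 replicate 3, E17 replicate 1, P1 replicate 1, 2 or 4, P6 replicate 1 or P60 replicate 1, 2 or 3). At P6 the libraries had 188, 120 and 115 CPM and at P15 they had 674, 686, 720.2 and 699. Channel RNA therefore rose at both steps, with a log2 fold change of 5.63 ± 0.18 for P6 over P1 (adjusted p = 7.00e-22) and 2.33 ± 0.18 for P15 over P6 (adjusted p = 5.67e-12). The count ratio of P6 to P1 was 72.5 (95% exact interval 56.6 to 94.4). The P28 mean of 611 ± 27.4 CPM and the P60 mean of 626 ± 101.2 differed neither from each other (adjusted p = 0.95) nor, in the case of P60, from P15 (695 ± 19.7; adjusted p = 0.43).

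Gpr179 encodes the orphan receptor that anchors the RGS proteins. It had 1.80, 2.22 and 3.16 CPM at E14 and 7.77, 7.32 and 7.46 at E17, a rise of 1.35 ± 0.18 (adjusted p = 1.50e-06) while Grm6 was still at single reads. The P1 libraries (8.83, 7.56, 9.84 and 5.80 CPM) overlapped those of E17. At P6 Gpr179 had 175, 155 and 131 CPM, after a rise of 4.11 ± 0.17 (adjusted p = 5.07e-19). The P15 libraries had 252, 268, 264 and 333 CPM. This further difference of 0.86 ± 0.17 passed the adjusted p (1.73e-04) but not the fold, and no neighbors differed in the order P28, P15, P60.

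Nyx, an X-linked gene, encodes nyctalopin and had the lowest mean level per exon length of the 8 members at P15, P28 and P60 (3.81, 4.47 and 4.62 CPM per kb). It had 3 to 6 reads in E14 libraries and 8 to 13 at E17. At P1 it had 3, 11, 1 and 14 reads, and replicates 2 and 4 were the higher ones for Nyx as for Grm6. Nyx rose to 8.20, 9.52 and 9.79 CPM at P6, by 2.52 ± 0.21 (adjusted p = 8.51e-12), with a count ratio of 10.6 (95% exact interval 7.17 to 16.2) over P1. It rose again to 19.1, 19.5, 18.0 and 22.4 CPM at P15, by 1.03 ± 0.21 (adjusted p = 1.91e-04), a value close to the minimum fold that was 0.96 without P6 replicate 1 and 0.97 without P15 replicate 4. P28 (23.2 ± 1.79 CPM) and P60 (23.9 ± 1.68) did not differ from each other or P28 from P15. The RNA Xist, made from the inactive X chromosome of females, was at 2.1 to 627 CPM at E14 and 404 to 595 at E17. It was at 1093 CPM in P1 replicate 3, at 1.26 to 1.59 in the other 3 P1 libraries and at most 1.73 from P6 on. The methods give mixed sexes for embryos and P1 pups, but Xist in these 3 P1 libraries was as low as in the males of P6. In those 3 P1 libraries, with Xist as low as at P6, Nyx had 0.368, 1.39 and 1.66 CPM, below every P6 library, and it had 0.113 in replicate 3.

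Lrit3 followed another course. It had 4.20, 3.69 and 6.11 CPM at E14 and 14.0, 15.8 and 16.9 at E17, a rise of 1.57 ± 0.13 (adjusted p = 3.72e-11). Over the next steps it moved by less than the minimum fold, as P1 libraries had 15.2, 15, 16.1 and 15.6 CPM and P6 libraries 21.1, 20.1 and 22.8. The difference between P1 and P6, 0.44 ± 0.12, passed the adjusted p (0.0034) and was the smallest of the 8 members. Lrit3 then rose by 1.40 ± 0.12 (adjusted p = 4.61e-11) to 64.4, 59.3, 53.9 and 54.3 CPM at P15, and no neighbors differed in the order P28, P60, P15 (53.1 ± 5.51, 53.5 ± 3.12 and 58.0 ± 4.92 CPM).

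Rgs7 and Rgs11 encode the GTPase-accelerating proteins. Rgs7 had 5.0, 5.38 and 5.16 CPM at E14 and rose to 10.9, 12.9 and 10.7 at E17, by 1.01 ± 0.15 (adjusted p = 6.86e-06). This value was under the minimum fold without E14 replicate 1 (0.99) or E17 replicate 2 (0.93). Rgs7 then climbed in smaller steps, with 15.9, 11.6, 10.3 and 16.3 CPM at P1 and 27.6, 22.6 and 21.4 at P6 (0.79 ± 0.14, adjusted p = 2.64e-05). At P15 it had 53.1, 53.9, 46.9 and 40.0 CPM (0.99 ± 0.14, adjusted p = 1.17e-06; at least 1 without P6 replicate 1, P15 replicate 3 or P15 replicate 4, at 1.10, 1.01 and 1.08). The rise of Rgs7 was thus spread over 3 steps of similar size, with P1 and E17 libraries overlapping between them.

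Rgs11 had 1.60, 1.37 and 1.90 CPM at E14 and 6.65, 5.91 and 4.87 at E17, a rise of 1.37 ± 0.28 (adjusted p = 5.91e-04). The P1 values of 2.21, 3.53, 4.64 and 3.08 CPM were all below those of E17, by -0.66 ± 0.26, which did not pass (adjusted p = 0.12). Rgs11 rose to 16.0, 11.4 and 11.3 CPM at P6 (1.68 ± 0.26, adjusted p = 2.99e-06) and to 39.2, 39.2, 37.5 and 45.1 at P15 (1.59 ± 0.26, adjusted p = 1.20e-05). Its steps at P6 and P15 were close in size, unlike those of Grm6.

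Gnao1 encodes the α subunit of Go, which neurons use widely, and was already well expressed at E14. It had 197, 185 and 189.7 CPM at E14, 219.9, 249 and 258 at E17, and 235, 211, 205 and 205 at P1. At P6 it had 386, 372 and 340.3 CPM, above every earlier library. The step from P1 to P6 of 0.77 ± 0.07 (adjusted p = 8.73e-11) passed the adjusted p without reaching the fold. At P15 the level was 416 ± 13.3 CPM, the highest age mean, above that of P6 by 0.18 ± 0.07 (adjusted p = 0.040; 0.059 to 0.22 without P6 replicate 2 or 3 or P15 replicate 1, 2 or 3). With all P60 libraries, Gnao1 was lower at P60 than at P15 by -0.36 ± 0.06 (limma, adjusted p = 4.95e-05), under the minimum fold. The P60 libraries had 298 to 350 CPM and those of P15 402 to 434. P60 was also below P6 by -0.18 ± 0.06 (limma, adjusted p = 0.024). Neither contrast was repeated in other settings.

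Counted step by step, 4 members rose from E14 to E17 (Gpr179, Lrit3, Rgs7 and Rgs11), or 3 without E14 replicate 1 or E17 replicate 2, against 2.90% of all features. None rose from E17 to P1, where 1.23% of all features did; limma gave 0 of 8 past both thresholds, 2 at an unadjusted p under 0.05 (Rgs11 and Gnao1, both lower at P1), and edgeR gave 0. From P1 to P6, 5 of 8 rose (Grm6, Trpm1, Nyx, Gpr179 and Rgs11), against 6.30%. From P6 to P15, 4 rose (Trpm1, Nyx, Lrit3 and Rgs11), against 4.74%; edgeR counted 5, with Rgs7 in addition. The median over the members was 2.10 at the step to P6 and 1.01 at the step to P15, beside -0.03 and -0.06 over all features. From P15 to P28, limma gave 0 of 8 lower past both thresholds, against 0.220% of all features, with 2 at an unadjusted p under 0.05 (Grm6 and Gnao1) and 0 by edgeR. From P28 to P60, 0 of 8 were higher past both thresholds, against 0.0756% of all features (24 higher and 120 lower, or 38 and 81 with median-of-ratios scaling), with 4 at an unadjusted p under 0.05 in either direction (Grm6, Gpr179, Rgs11 and Gnao1) and 0 by edgeR. Without a minimum fold, all 8 passed the adjusted p at the step to P6, against 38.3% of all features in either direction. At the step to P15 7 of 8 did, against 33.4%.

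**Figure D2:**
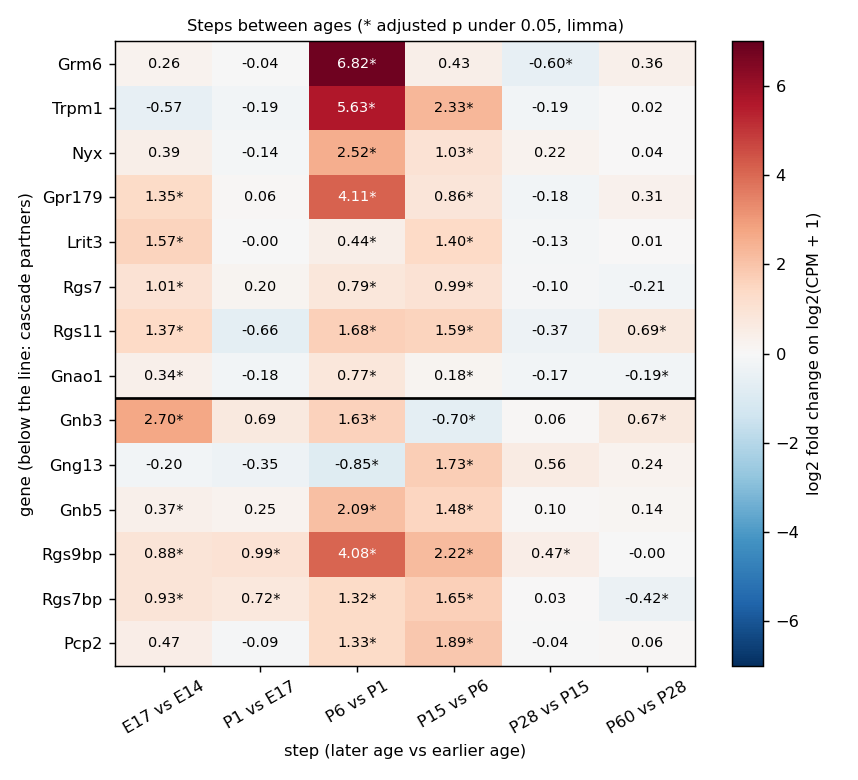
Log2 fold change of each member (rows above the line) and of 6 further genes of the cascade (rows below it) at the 6 steps between neighboring ages (columns), later age against earlier age, on the log2(CPM + 1) scale; color and number give the value and an asterisk an adjusted p under 0.05. The largest value is 6.82 for Grm6 at P6 vs P1, where Lrit3 has 0.44.

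The onset of channel, scaffold and regulators was then compared with that of the receptor. As a percent of its highest age mean, Grm6 stood at 0.146% at P1 and 74.7% at P6. At P6 Gpr179 stood at 49.2%, Rgs7 at 49.2%, Nyx at 38.3%, Lrit3 at 36.8%, Rgs11 at 23.6% and Trpm1 at 20.3%, and Gnao1 at 88.0%. At P1 the order was another one, with Gnao1 at 51.5%, Rgs7 at 27.9%, Lrit3 at 26.7% and Rgs11 at 6.16%, and with Nyx (3.68%), Gpr179 (2.56%) and Trpm1 (0.275%) closer to Grm6. The receptor was thus among the latest RNAs to appear and, after Gnao1, the closest to its highest level at P6. Of the 8, Grm6 and Gnao1 were past 50% of their highest age mean by P6, and the other 6 first passed it at P15. Gpr179 and Rgs7 lay too close to 50% for this to be firm. Without P60 replicates 3, 4 and 5 Gpr179 stood at 55.1% at P6, and leaving out P6 replicate 3 or P60 replicate 3, 4 or 5 alone gave 52.9%, 52.1%, 50.3% and 51.4%. Rgs7 stood at 50.5% to 51.7% without P6 replicate 2 or 3 or P15 replicate 1 or 2. The highest age mean of Rgs11 is also that of P60, and without P60 replicates 3, 4 and 5 its P6 share was 32.0%.

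**Figure D3:**
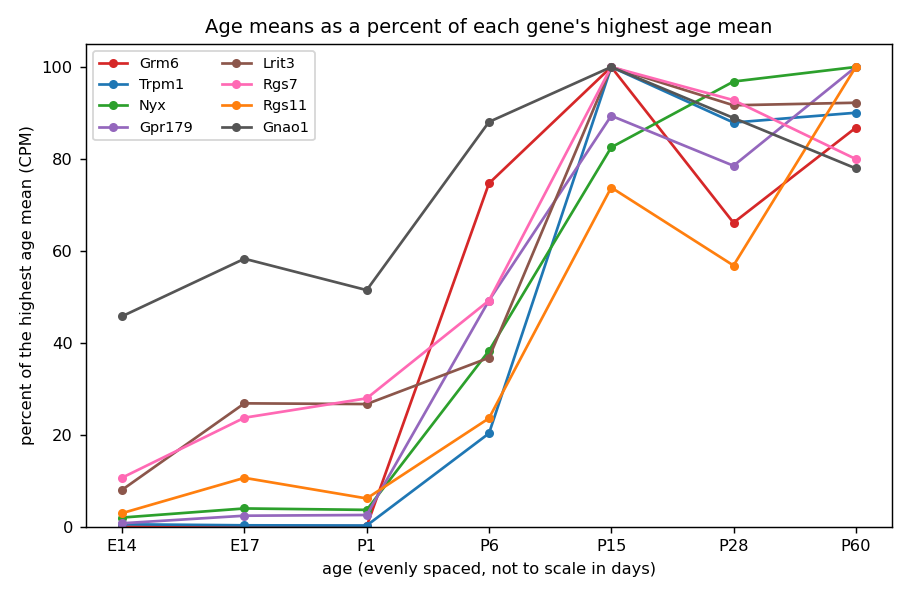
Mean CPM of each member at each age (horizontal axis) as a percent of its own highest age mean (vertical axis, from 0). At P6 Gnao1 (88.0%) and Grm6 (74.7%) are above the other 6 members, which lie between 20.3% and 49.2%, and Trpm1 has the steepest line between P6 and P15.

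Within libraries, the log2 difference of each gene from Grm6 was compared between the 3 P6 libraries and the 14 mature ones. This used an exact two-sided permutation test, adjusted over the 7 comparisons. The mature group pools P15, P28 and P60, and the smallest p that P6 against P15 alone allows in this test is 0.057. All 7 comparisons subtract the same Grm6 values and are not independent. They also use the libraries that gave the P6 percentages. The channel stood furthest behind. Log2(Trpm1 CPM + 1) minus log2(Grm6 CPM + 1) was -0.18 to 0.21 at P6 and 1.78 to 2.37 in mature libraries, a shift of -2.05 (exact permutation p = 0.0029, the smallest these numbers allow; adjusted p = 0.0041). Rgs11 shifted by -1.46, Lrit3 by -1.16, Nyx by -1.05 and Gpr179 by -0.71, each with no overlap between P6 and mature libraries (exact permutation test, adjusted p = 0.0041). Rgs7 shifted by -0.67 (exact permutation test, adjusted p = 0.0069), with 1 mature library inside the P6 range. Gnao1 gave 0.17 (exact permutation test, adjusted p = 0.49), and its P6 values of 1.24 to 1.47 lay inside the mature range of 0.51 to 1.73. Without P60 replicates 3, 4 and 5 the 6 shifts other than that of Gnao1 ran from -2.09 (Trpm1) to -0.68 (Gpr179), each with an adjusted p of 0.0064 in the exact permutation test. Measured against the pooled mature level, the RNA of these 6 genes had covered less of its way at P6 than that of Grm6 had. That level includes P28, where the Grm6 mean (124 CPM) was below that of P6 (140.3). At P6, P15, P28 and P60 the mean difference was 0.13, 0.56, 0.98 and 0.93 for Gpr179. It was -3.79, -3.19, -2.37 and -2.68 for Nyx and -2.51, -1.94, -1.45 and -2.01 for Rgs7. The part of later Grm6 levels in the shifts was not tested.

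**Figure D4:**
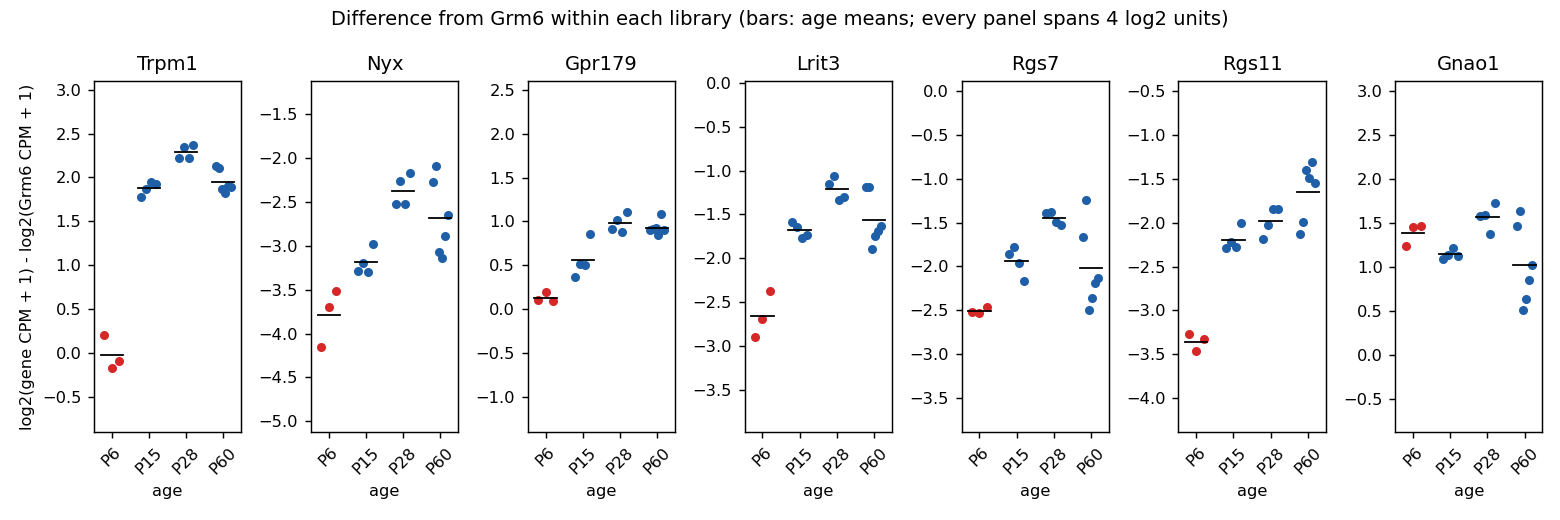
Log2(CPM + 1) of 7 members minus that of Grm6 in the same library (vertical axis, the same span in every panel) at P6 (red), P15, P28 and P60 (blue); points are libraries and bars age means. The P6 points of Trpm1, at -0.18 to 0.21, lie below all mature points, at 1.78 to 2.37, whereas those of Gnao1 lie among them.

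Levels of different genes were compared only after division by exon length (CPM per kb of the summed exons of all annotated transcripts). At P6 the order of mean levels was Gnao1 (33.1 CPM per kb), Grm6 (25.9), Gpr179 (16.1), Trpm1 (9.57), Lrit3 (7.78), Rgs7 (3.96), Rgs11 (3.06) and Nyx (1.77). At P15 Trpm1 was the highest (47.1 CPM per kb), followed by Gnao1 (37.6), Grm6 (34.6), Gpr179 (29.2) and Lrit3 (21.2), with Rgs11 (9.57), Rgs7 (8.05) and Nyx (3.81) lower. Trpm1 has 14746 exon bases over 23 annotated transcripts and Lrit3 2739 over 3, so this length can exceed that of the transcripts in use.

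Adult libraries at P60 varied more than those at P28 for part of the complex. Rgs11 had 28.1, 27.2, 78.7, 68.2, 70.9 and 54.4 CPM in P60 replicates 1 to 6, against 26.6, 29.3, 37.2 and 30.8 at P28. Gpr179 had 238, 211, 399, 346, 377 and 303 CPM, and Grm6 had 126, 111, 209.8, 193, 177 and 161. Replicates 1 and 2 were the lowest for these 3 genes and for Trpm1 (555, 483, 769, 683, 662 and 600.2 CPM), while the other 4 were above every P28 library for Rgs11, Gpr179 and Grm6. Gnao1 ran the other way, with 350.2, 348, 298, 301, 319.8 and 328 CPM, as did Rgs7, with 39.3, 46.3, 36.3, 36.7, 38.0 and 35.9 CPM. Nyx (21 to 25.3 CPM) and Lrit3 (48.3 to 56.6) showed no such split. The summed CPM of 8 genes of the photoreceptor side of the synapse moved with it, at 1803 and 1759 in replicates 1 and 2 and 2178 to 2704 in the other 4, whereas the 4 ON bipolar markers summed to 765 and 759 and to 695 to 789; the part of these differences in the result was not tested. The CPM of a library also depend on its total. The median-of-ratios factors of P60 replicates 1 to 6 were 1.01, 0.989, 0.870, 0.936, 0.934 and 0.986, and a lower factor means a higher value after that scaling. The fall of Gnao1 and Rgs7 in replicates 3, 4 and 5 is therefore tied to the CPM scale, and the part of the scaling in the split was not tested. Pools and single mice at P60 cannot be told apart from the labels.

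Tested between P28 and P60, Rgs11 was higher at P60 by 0.69 ± 0.22 (adjusted p = 0.038) and Gnao1 lower by -0.19 ± 0.06 (adjusted p = 0.033), both under the minimum fold. Without P60 replicates 3, 4 and 5, the values were 0.17 (adjusted p = 0.77) and -0.11 (adjusted p = 0.48). Because those libraries were left out, after the data were seen, for their low correlation with P28, this choice itself favors a smaller difference between P28 and P60. The p of Rgs11 was also above the threshold without P28 replicate 1, 2 or 4 (0.11, 0.092 and 0.071) and without P60 replicate 3, 4, 5 or 6 (0.091, 0.091, 0.094 and 0.059). That of Gnao1 was above it without P28 replicate 1, 2 or 4 (0.083, 0.081 and 0.073) and without P60 replicate 3, 4 or 5 (0.082, 0.076 and 0.059). Gnao1 also missed it with median-of-ratios scaling (-0.12, limma adjusted p = 0.17) and by edgeR (-0.14, adjusted p = 0.14). Rgs11 stayed under it in both settings, but its adjusted p by limma was 0.053 with a pseudocount of 0.1. Across the 6 P60 libraries Grm6 and Gpr179 correlated at a Pearson r of 0.97 on the log2 scale, Gpr179 and Rgs11 at 0.98 Grm6 and Gnao1 at -0.96 and Grm6 and Rgs7 at -0.84; these describe 6 libraries that share the split above.

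**Figure D5:**
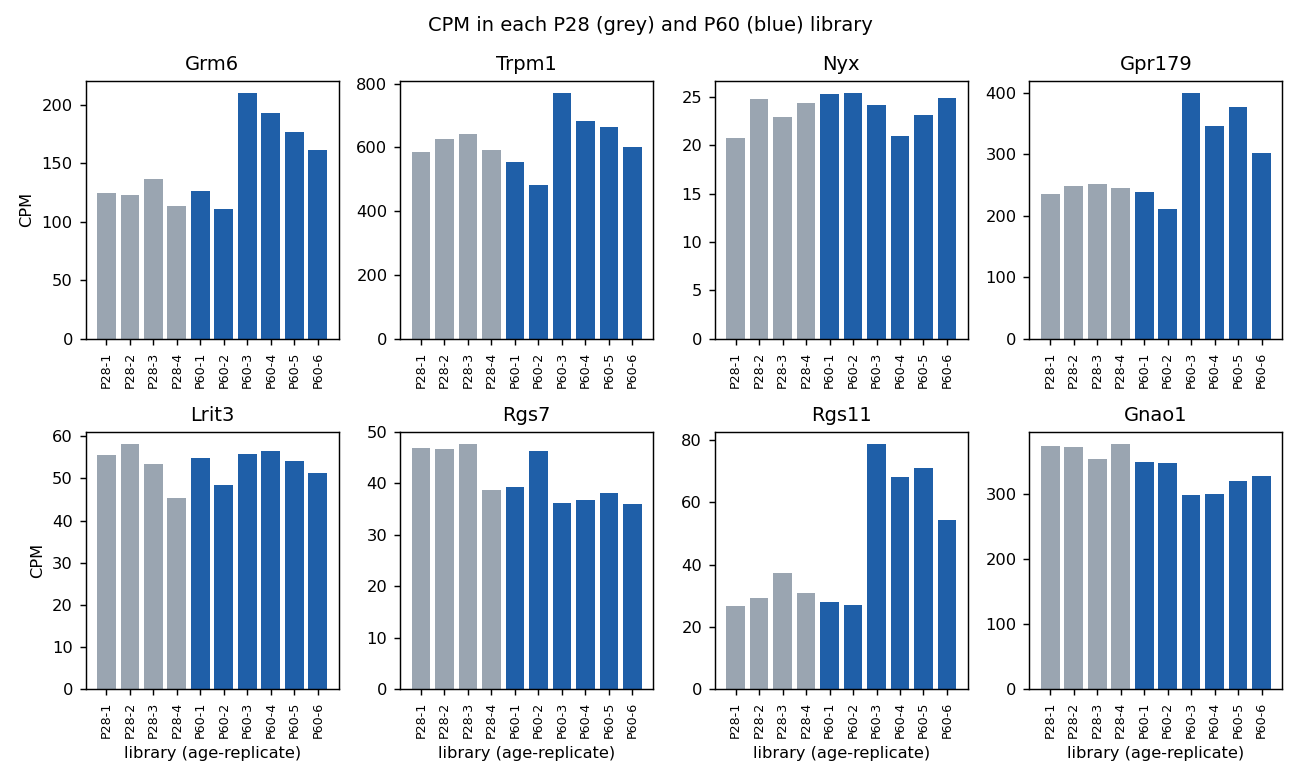
CPM of each member (bars from 0, 1 bar per library) in the 4 P28 libraries (grey) and the 6 P60 libraries (blue). Rgs11 has 27.2 and 28.1 CPM in P60 replicates 2 and 1 and 54.4 to 78.7 in the other 4, whereas Nyx stays between 21 and 25.3.

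A further 6 genes serve the same cascade in ON bipolar cells. Of these 6, 5 rose from P1 to P6, against 6.30% of all features, and 5 from P6 to P15, against 4.74%. Rgs9bp, which anchors R7 RGS proteins to membranes and also serves the RGS9 complex of photoreceptors, had mean levels of 12.9 CPM at P1, 231 at P6 and 1075 at P15. Gnb5, the β subunit that pairs with RGS7 and RGS11, had 12.4, 56.4 and 158 CPM (2.09 and 1.48 at the 2 steps, adjusted p = 1.36e-17 and 2.24e-13). Both thus continued to rise after P6, as Rgs11 did. Gnb3, a β subunit of the Go trimer also used by cones, rose to P6 (1.63) and was then lower at P15 by -0.70 (adjusted p = 0.016). Gng13, the γ subunit, was lower at P6 than at P1 by -0.85 (adjusted p = 0.0097) and rose by 1.73 to P15 (adjusted p = 3.28e-06), from 1.05 to 5.81 CPM. Pcp2, a modulator of Go, rose by 1.33 and 1.89, and Rgs7bp, a further membrane anchor, by 1.32 and 1.65. Exons of Gng13 and Pcp2 share 51.6% and 51.5% of their length with genes on the opposite strand. In mature against embryonic retina 5 of the 6 were higher past both thresholds, against 14.9% of all features. Their median was 3.70, beside -0.06 over all features.

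On the photoreceptor side of the synapse, 7 of 8 genes rose from P1 to P6, against 6.30% of all features. From P6 to P15 3 of 8 rose, against 4.74%. The medians were 1.93 and 0.69, beside -0.03 and -0.06 over all features. Elfn1, the photoreceptor adhesion protein that binds mGluR6 across the synapse, had 34.1 CPM at P1, 114 at P6 and 114 at P15, so that its level, like that of Grm6, was near its later value by P6. Egflam (pikachurin), which links to GPR179, had 56.6, 171 and 145 CPM. The vesicular glutamate transporter Slc17a7 (8.39, 141 and 540 CPM) and the calcium channel subunit Cacna1f (9.79, 93.2 and 249 CPM) rose at both steps, as Trpm1 did. Dag1, the pikachurin receptor dystroglycan, was the exception, lower in mature than embryonic retina by -1.22 (adjusted p = 3.97e-19).

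Relatives of the members took several courses. Of 13, 3 rose (6.30% of all features did) and 1 fell from P1 to P6, and 4 rose from P6 to P15 (4.74%). In mature retina 6 were higher (14.9%) and 2 lower, with a median of 0.86 beside -0.06 over all features. Of all 31760 features, 2141 fell from P1 to P6 and 5106 were lower in mature retina. Lrit1 and Lrit2, the relatives of Lrit3, rose by 3.70 and 2.54 at the step to P6, where Lrit3 gave 0.44. Rgs9, the photoreceptor relative of Rgs7 and Rgs11, reached 1977 CPM at P15. The other group III glutamate receptors, Grm4, Grm7 and Grm8, had 3.85, 112 and 25.3 CPM at P1 and 6.90, 120 and 39.5 at P6, without a step like that of Grm6. The inhibitory α subunits Gnai2 and Gnai3 fell between embryonic and mature retina, by -1.87 and -2.06, whereas Gnaz was higher by 2.07 and Gpr158, the relative of Gpr179, by 2.56.

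Markers of bipolar cells were read in the same libraries. Over all features, 6.30% rose from P1 to P6 and 4.74% from P6 to P15. All 4 ON bipolar markers rose from P1 to P6, among them Prkca of rod bipolar cells (69.1 to 286 CPM, 2.02) and the ON bipolar factor Bhlhe23 (0.0283 to 9.17 CPM, 3.30), and 1 of 4 (Car8) rose from P6 to P15. At that step Isl1 was lower (-0.91) and Prkca higher (0.87), both at an adjusted p under 0.05 but under the minimum fold. Bhlhe23 gave 0.06 (limma, adjusted p = 0.84). Isl1, which ganglion and amacrine cells also use, was lower in mature than embryonic retina by -1.01. Of 4 OFF bipolar markers 2 rose to P6, Vsx1 (5.65) and Grik1 (3.82). Fezf2 was lower at P6 by -0.53 (adjusted p = 0.022), under the minimum fold, and its mature level was below the embryonic one by -2.49 (adjusted p = 1.35e-18), whereas Irx6 gave 0.20 at P6 (adjusted p = 0.51). The 3 general bipolar markers reported, Tmem215 (4.65), Scgn (3.64) and Cabp5 (1.69), also rose to P6. From P6 to P15 no OFF marker passed both thresholds, with Vsx1 (-0.86) and Fezf2 (-0.85) lower and Grik1 (0.54) higher at an adjusted p under 0.05, and of these 3 general markers Cabp5 and Scgn rose.

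Trpm1 is also known from melanocytes, and RPE can adhere to dissected retina. The 10 markers of pigment cells and RPE had a summed level of 11.6 to 23.8 CPM in the P1 libraries and 22.9 to 39.6 CPM in those of P6. Their sum was 35.3 to 45.4 CPM at P15, then 23.1 to 29.4 (P28) and 16.6 to 38.0 (P60). Of the 8 that passed the filter, 1 (Dct) rose to P6, against 6.30% of all features, and 1 (Rpe65) to P15, against 4.74%. Mlana had a mean of at most 0.128 CPM at any age. Trpm1 at P28 and P60 stayed near its P15 level while the sum fell at P28; the part of pigment cells in the Trpm1 values was not tested. Of 5 amacrine and ganglion cell markers, 1 rose (Slc6a9) and 3 fell (Pax6, Rbpms and Pou4f1) from P1 to P6. The broadly neuronal Gnao1 and Rgs7 were higher there by 0.77 and 0.79. Of all 31760 features, 2141 fell at that step. Lens markers summed to at most 5.49 CPM in any library, and of 2 blood genes Hba-a1 rose to P6 (0.918 to 17.4 CPM) and fell at P15.

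The features with a Gene ID whose profiles were most like that of Grm6 over the 27 libraries were Lamp5 (Pearson r 0.995), 4933429O19Rik (0.994), Stom (0.994), Amph (0.993) and Prom1 (0.993). They were picked for this likeness. All had a P6 mean closer to the P15 mean than to the P1 mean. Lamp5, for example, had means of 0.983, 25.6 and 33.0 CPM at P1, P6 and P15, and Prom1, a photoreceptor disc protein, had 97.9, 612 and 636. Prom1 and Amph (40.5 CPM at P1) were thus well detected at P1, unlike Grm6. The members were less like Grm6 than these, at 0.98 for Gpr179 and Trpm1, 0.97 for Nyx, 0.92 for Rgs11 and Gnao1, 0.91 for Rgs7 and 0.86 for Lrit3. All libraries share the large difference between ages, so these values describe the shape of the time course only. Over the 14 mature libraries alone, Grm6 correlated with Trpm1 at 0.86 and with Nyx at -0.56.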

How the data were processed

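Total RNA of C57BL/6J retinas was measured by RNA-seq in 27 libraries. According to the study's methods, the authors used a SMARTer total RNA kit and single-end reads on a HiSeq instrument, aligned with STAR to GRCm38 (mm10); the annotation and the use of strand in counting are not given in the sources used here. They deposited 1 table of CPM values, the reads of a feature scaled to a library total that is the same for all samples, for 38168 features. Dividing each value by the smallest step of its library gave whole reads for 100% of values within a tolerance of 0.1, except that E14 replicate 1, whose step is close to a round decimal, could not be judged automatically; totals were 7076646 to 11330762 reads. Replicates are the labels' separate libraries of an age, and where P60 libraries came from 1 mouse or several is not stated by library, so p-values measure the spread between libraries.

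Values were analyzed as log2(CPM + 1), a scale that understates the change of low genes, for the 31760 features that reached 1 CPM in 3 or more libraries. Limma 3.58.1 (R 4.3.3) used 1 model of all 27 libraries by age, with a mean-variance trend; tests were two-sided and p-values adjusted by Benjamini-Hochberg over these features. Calls needed an adjusted p under 0.05 together with a log2 fold change of 1 or more in size. Timing relative to Grm6 used exact permutation tests (scipy 1.17.1). Genes named are the 8 members, fixed lists of cascade partners, photoreceptor-side genes, relatives and cell markers, and the 5 features most like Grm6; members and lists were chosen with earlier results of these data known, and the promoter motifs after the sequences were seen; 1 gene of the marker lists is not reported here. Alternatives were a pseudocount of 0.1, no filter, a minimum mean of 10 CPM, scaling by median of ratios, a block for the replicate number, edgeR 4.0.16 on the recovered reads, no minimum fold and leaving out each library; edgeR without E14 replicate 1 and P60 reduced to 3 libraries (leaving out those least correlated with P28, a choice that favors smaller differences from P28) were added after the data were seen. On simulated reads, limma recovered 189 to 198 of 200 changed features per step with 0 false calls and edgeR 199 to 200 with 1 to 6. These reads had the same dispersion for every feature, changes of 1.5 log2 units and no changed feature of low mean level. The recovery therefore does not cover the wider spread at P60 or genes near 0 reads. Gene models were GENCODE M21 and promoters RefSeq.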

Additional observations from a re-analysis of the deposited data

Results flagged for a closer look

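In 2 of the 32 groups of 4 or 6 libraries tested (8 members at P1, P15, P28 and P60), a single library lay far from the rest of its age by Dixon's criterion, which chance meets in about 1 in 20 groups. Both concern Rgs7. P28 replicate 4 had 38.7 CPM of Rgs7, below the 46.6 to 47.6 CPM of the other P28 libraries. P60 replicate 2 had 46.3 CPM, above the 35.9 to 39.3 CPM of the other P60 libraries.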

How the results depend on the processing

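Over the 56 member fold changes (8 members, 7 contrasts) and 1960 alternative values, 1864 kept their direction and their side of the adjusted p threshold, 47 lost it, 29 gained it and 20 reversed; each reversed value missed the threshold in both analyses. Without a minimum fold change the members called were 8 at the step to P6, 7 at that to P15, 1 at that to P28 and 2 at that to P60. The shares of all features, in either direction, were 38.3%, 33.4%, 2.72% and 12.9%. Reversals from leaving out a library gave these log2 ranges: from E17 to P1, -0.16 to 0.13 for Grm6, -0.33 to 0.00095 for Trpm1, -0.33 to 0.0851 for Nyx, -0.0365 to 0.19 for Gpr179 and -0.0737 to 0.0526 for Lrit3; from P28 to P60, -0.0432 to 0.0906 for Trpm1, -0.0045 to 0.0806 for Nyx and -0.0599 to 0.0569 for Lrit3. With P60 reduced to 3 libraries, Trpm1 (-0.17) and Lrit3 (-0.0417) reversed between P28 and P60. The 7 timing comparisons with Grm6 kept their call in each of their 20 alternatives. Counts over all features moved by over 1.5 times in some settings. Features higher at the 4 steps to E17, P1, P6 and P15 numbered 920, 390, 2000 and 1506, but 1464, 667, 3117 and 2604 by edgeR and 569, 214, 1177 and 697 at a mean of at least 10 CPM, where fewer features were tested; with a pseudocount of 0.1 those to E17, P1 and P15 were 1573, 697 and 2289. The 70 lower at P28 became 108, 106 and 21 and the 24 higher at P60 110, 184 and 5 (pseudocount, edgeR and mean CPM), with 38 by median-of-ratios scaling and 11 with P60 reduced to 3 libraries. The 4726 higher in mature retina became 7469 by edgeR and 2396 at the mean CPM filter. The other causes were not tested.

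With the replicate number as a block, the count of members called stayed at 4, 0, 5, 4, 0 and 0 over the 6 steps and 7 in mature against embryonic retina. At the step to P15, however, the 4 members were not the same. Nyx (0.97) fell under the minimum fold and Rgs7 (1.02) passed it. Lrit3 reversed from E17 to P1 (0.0139). Grm6 from P15 to P28 (adjusted p = 0.058), Rgs11 (0.15) and Gnao1 (0.084) from P28 to P60 lost the adjusted p and Trpm1 from E14 to E17 gained it (0.042). On average, same-numbered libraries did not deviate together (mean r -0.0014 over 69 pairs), and 7 of 27 libraries were closest to their own number. No pairing by number was thus found, but this cannot show that same-numbered libraries were handled apart. Depth limits Grm6 and Nyx before P6, where libraries held 0 to 14 reads.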
